A study of Mus musculus with 2 samples.

Results

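A set of 8 genes of the B7, CD28 and CD40 costimulation families, *Cd80*, *Cd86*, *Cd28*, *Icos*, *Icosl*, *Cd40*, *Cd40lg* and *Cd83*, were read from the 22337 gene symbols measured in single cells of transplanted mouse hearts. They were chosen by name, and all 8 were above 0 in the data. A T cell that meets its antigen needs a further signal from the antigen-presenting cell. CD28 on the T cell gives that signal when it binds CD80 or CD86 (the B7 proteins), and ICOS gives a related signal when it binds ICOS ligand, the product of *Icosl*. In the opposite direction, CD40 ligand on the activated T cell binds CD40 on B cells, dendritic cells and macrophages and licenses them to present antigen, and CD83 marks mature dendritic cells and activated B cells, where it keeps MHC class II and CD86 at the surface. Blocking these pairs is a long-established way to delay rejection of a graft in mice.

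The hearts came from Bm12 donors, whose I-A molecule carries a mutation that B6 CD4+ T cells recognize, and were placed in B6 recipients and taken at postoperative day (POD) 14. Hearts 1, 2 and 3 are labelled BM12 WT and are called IL-33+ here, and hearts 4, 5 and 6 are labelled BM12 IL33 KO and are called IL-33-. The recipients of both groups were B6 mice, and the deletion was carried by the donor heart. The animals' ages are not given in the labels. Cells from the digested hearts were separated on Lympholyte-M, marked with 1 hashtag antibody per heart and captured in a single pool, so that all 6 hearts share 1 library.

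Transcript of *Il33* was not absent from hearts labelled IL-33-. Fibroblasts held 7, 0 and 121 UMIs of *Il33* in hearts 1, 2 and 3, and 9, 3 and 5 in hearts 4, 5 and 6. Per cell this was 24.3, 0 and 50.7 CPM against 32.6, 73.8 and 16.1 CPM, and the groups overlapped. A 3' tag can lie outside a deleted part, but read positions were not examined. The source of these UMIs in hearts labelled IL-33- was not tested, and the groups are therefore named by their labels. The 4441 cells fall into 14 types annotated by the authors, of 83 to 931 cells, and 230 to 1666 cells came from a heart. A heart held 908138 to 7012960 UMIs (unique molecular identifiers, each marking 1 captured transcript), and the median cell of a type held 2292 to 10175. Each cell barcode occurs once in the single pool and carries 1 heart label. Levels are CPM (a gene's UMIs scaled to the same total in every cell), given as the mean of a heart's cells of that type, and n is the number of hearts. The types were made by clustering on all genes, so differences between types are given as a description, without a test.

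Marker genes were checked in the annotated types, and some types that matter here also held markers of other cells. Cells annotated as monocyte-derived dendritic cells (Mo-DCs) also held 8 of 8 neutrophil markers, at a sum of 2193 to 71701 CPM, the highest in heart 4. Cells annotated as unconventional T cells held macrophage markers at 3074 to 6355 CPM, and 46 of their 83 cells (55.4%) had UMIs of both T cell and macrophage markers. Cells annotated as Tregs held UMIs of 7 of 7 genes of a list for group 2 innate lymphoid cells, at a sum of 417 to 2118 CPM. *Il5* was 165 CPM in them and at most 10.1 CPM in the other types. *Calca* (161 CPM) and *Gata3* (709 CPM) were also highest in Tregs. *Klrg1* (33.1 CPM) was higher in NK cells (51.3), *Ptgir* (22.5) in monocytes (54.4) and *Hs3st1* (40.4) in B cells (42.6). *Il17rb* had 2 UMIs in Tregs. The part of innate lymphoid cells in the Treg values below was not tested. Values in the Mo-DCs and unconventional T cells are therefore given by their annotated names only. Cells annotated as Tem/eff held 9 of 9 Treg markers, at a sum of 2326 to 3205 CPM, against 4256 to 6329 CPM in Tregs. *Foxp3* was 40.1 CPM (91 UMIs) in Tem/eff cells and 132 CPM (88 UMIs) in Tregs. The part of cells with Treg markers in the Tem/eff values below was not tested.

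Apart from *Icosl*, each costimulation gene was concentrated in a few types, and receptors and ligands lay on opposite sides of the T cell contact. *Cd28* and *Icos* were found in T cells, with 81.4% of 3395 *Cd28* UMIs and 86.3% of 3096 *Icos* UMIs in the 6 annotated T types. *Cd86*, *Cd40* and *Cd83* were found mostly in myeloid and B cells. *Cd80* was found mostly in myeloid cells, with 4.32% of its UMIs in B cells and 18.7% in the 6 annotated T types. The myeloid types (cDCs, Mo-DCs, macrophages and monocytes) together held 69.4% of 509 *Cd80* UMIs, 72.1% of 1296 *Cd86* UMIs, 73.5% of 930 *Cd40* UMIs and 64.0% of 4244 *Cd83* UMIs. *Icosl* UMIs were spread more widely, with 39.4% in myeloid types, 23.7% in B cells, 13.7% in fibroblasts, 12.4% in NK and NKT cells and 10.8% in T types. *Icosl* (249 UMIs) and *Cd40lg* (52 UMIs) were sparse, and their levels rest on few transcripts.

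**Figure D1:**
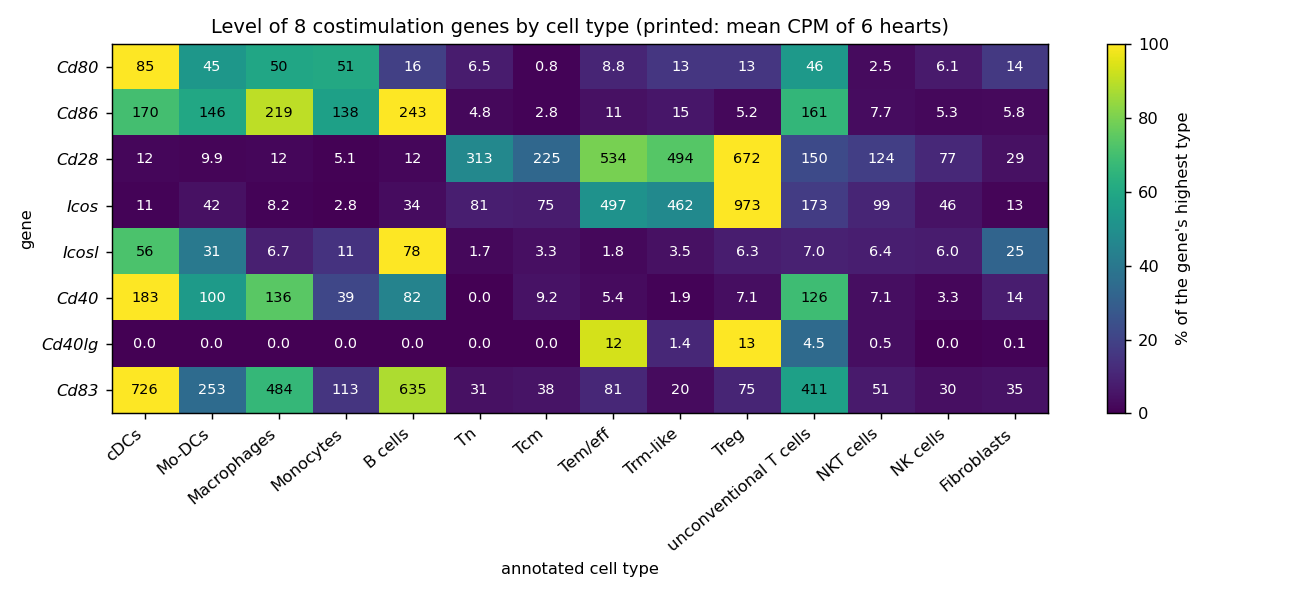
Levels of the 8 genes (rows) in 14 annotated cell types (columns). Each cell of the map gives the mean CPM of 6 hearts, and the colour gives that level as a percentage of the gene's own highest type. *Cd28*, *Icos* and *Cd40lg* are highest in Tregs, *Cd80*, *Cd40* and *Cd83* in cDCs, and *Cd86* and *Icosl* in B cells.

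*Cd80* and *Cd86* encode the B7 ligands of CD28. *Cd80* lies on chromosome 16 of GRCm38 from 38455561 to 38496335 and *Cd86* on the same chromosome from 36603869 to 36666081, on the opposite strand. *Cd80* was highest in conventional dendritic cells (cDCs), at 98.7, 25.2 and 92.8 CPM in hearts 1, 2 and 3 and at 159, 56.6 and 75.5 CPM in hearts 4, 5 and 6 (mean 84.7 ± 45.2 SD, n = 6). Heart 4 was the highest and heart 2, with 6 cDCs, the lowest, and the groups overlapped. Monocytes (51.1 ± 20.6 CPM), macrophages (50.05 ± 21.0), unconventional T cells (45.9 ± 35.3) and Mo-DCs (44.8 ± 26.2) followed. The step from cDCs to monocytes, although positive in 5 of 6 hearts, was smaller than its SD over hearts (33.6 ± 43.2 CPM), and the only step between neighbours that exceeded its SD was that from Mo-DCs to B cells (28.9 ± 27.6 CPM), which had 16.0 ± 14.9 CPM.

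*Cd86* had another order, with B cells and macrophages in front. In B cells it was 132, 318 and 174 CPM in hearts 1, 2 and 3 and 186, 375 and 273 CPM in hearts 4, 5 and 6, where heart 5 gave 4 B cells. In macrophages it was 129, 386 and 181 CPM against 187, 242 and 186 CPM. The 6 types that held it were close together, from 243 ± 94.1 CPM in B cells and 219 ± 89.3 in macrophages to 138 ± 66.7 in monocytes, and no step between them exceeded its SD. Below monocytes the level dropped to 14.5 ± 9.08 CPM in Trm-like T cells, lower in 6 of 6 hearts.

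The shares of cells with each B7 gene were set side by side without a test. After each cell was thinned to 1500 UMIs, *Cd86* was found in 64 of 286 B cells (22.4%), 35 of 171 cDCs (20.5%) and 85 of 429 macrophages (19.8%). *Cd80* was found in 7 B cells (2.45%), 26 cDCs (15.2%) and 24 macrophages (5.59%). In naive T cells (Tn), which should lack both, each was found in 1 of 243 cells (0.412%), and the median cell had 2764 UMIs before thinning, against 2292 in B cells, 6544 in cDCs and 6606 in macrophages.

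*Cd28* and *Icos* encode the receptors. They lie in a row on chromosome 1, *Cd28* from 60716800 to 60773359 and *Icos* from 60977927 to 61000320, with *Ctla4*, the inhibitory receptor for the same B7 ligands, between them at 113640 bases from *Cd28* and 62094 bases from *Icos*. *Cd28* was highest in Tregs (849, 780 and 877 CPM in hearts 1, 2 and 3, and 657, 383 and 484 CPM in hearts 4, 5 and 6). All hearts labelled IL-33+ lay above all those labelled IL-33-. Tem/eff cells (534 ± 84.0 CPM) and Trm-like cells (494 ± 107 CPM) came next, and neither was separated from its neighbour above by more than the SD of the difference. Tn (313 ± 155 CPM) stood below Trm-like cells by more than that SD (180 ± 149 CPM).

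*Icos*, which T cells raise after activation, was more unequal among T types than *Cd28*. In Tregs it was 751, 802 and 1281 CPM in hearts 1, 2 and 3 and 1074, 863 and 1070 CPM in hearts 4, 5 and 6. Tregs exceeded Tem/eff cells (497 ± 53.8 CPM) in 6 of 6 hearts, by 476 ± 171 CPM. Trm-like cells had 462 ± 138 CPM, and the resting types were far lower, with 80.6 ± 48.0 CPM in Tn and 74.8 ± 22.0 CPM in Tcm. *Cd28* in those types was 313 ± 155 and 225 ± 64.8 CPM. Among thinned Tregs 163 of 263 (62.0%) had an *Icos* UMI and 149 (56.7%) a *Cd28* UMI, against 5 (1.75%) and 8 (2.80%) of 286 B cells.

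*Icosl*, on chromosome 10 from 78069302 to 78083913, is the ligand of ICOS. It was highest in B cells, at 102, 105 and 65.0 CPM in hearts 1, 2 and 3 and 113, 0 and 82.4 CPM in hearts 4, 5 and 6. The 0 came from the 4 B cells of heart 5. cDCs (55.8 ± 34.9 CPM), Mo-DCs (31.4 ± 33.7 CPM) and fibroblasts (25.2 ± 33.7 CPM) followed, with no step between neighbours beyond its SD. Macrophages, which held much *Cd86*, had 6.72 ± 5.54 CPM of *Icosl* from 15 UMIs in 429 cells, close to T and NK cells.

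*Cd40* lies on chromosome 2 from 165055627 to 165072948 and *Cd40lg* on chromosome X from 57212143 to 57224042. *Cd40* was highest in cDCs, at 132, 185 and 173 CPM in hearts 1, 2 and 3 and 205, 268 and 136 CPM in hearts 4, 5 and 6. Macrophages (136 ± 42.9 CPM), unconventional T cells (126 ± 45.5), Mo-DCs (99.8 ± 87.2) and B cells (82.3 ± 41.8) followed within the SD of each step. *Cd40* was not detected in Tn (0 of 243 cells, which allows up to 1.23% of cells with a captured UMI and sets no limit on cells with the transcript).

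*Cd40lg* was detected in 42 of 4441 cells. In Tem/eff cells it was present in every heart, at 13.7, 5.93 and 19.3 CPM in hearts 1, 2 and 3 and 10.7, 16.3 and 6.82 CPM in hearts 4, 5 and 6, from 24 UMIs. In Tregs the mean was alike, 12.9 ± 14.9 CPM, but the 17 UMIs came from hearts 2, 3 and 6 only. Trm-like cells held 3 UMIs. No UMI was found in 931 NK cells (share with a captured UMI up to 0.322%), 429 macrophages (0.699%), 286 B cells (1.05%), 266 Tcm cells (1.13%) or 243 Tn cells (1.23%). These limits cover counting error only and do not bound the share of cells with the transcript.

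*Cd83*, on chromosome 13 from 43784775 to 43803132, had the most UMIs of the 8 genes. It was 556, 486 and 967 CPM in the cDCs of hearts 1, 2 and 3 and 730, 1015 and 600 CPM in those of hearts 4, 5 and 6. In B cells it was 604, 676 and 1139 CPM against 519, 114 and 758 CPM. In macrophages it was 408, 456.4 and 928 CPM against 402, 301.3 and 410 CPM. Hearts varied widely within each type, and the order of cDCs (726 ± 221 CPM), B cells (635 ± 334 CPM) and macrophages (484 ± 223 CPM) was not separated beyond the SD of the steps. Outside the antigen-presenting types it was lowest in Trm-like cells, at 19.97 ± 10.99 CPM. Thinned to 1500 UMIs, 160 of 286 B cells (55.9%) and 87 of 171 cDCs (50.9%) had a *Cd83* UMI, against 9 of 243 Tn (3.70%).

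**Figure D2:**
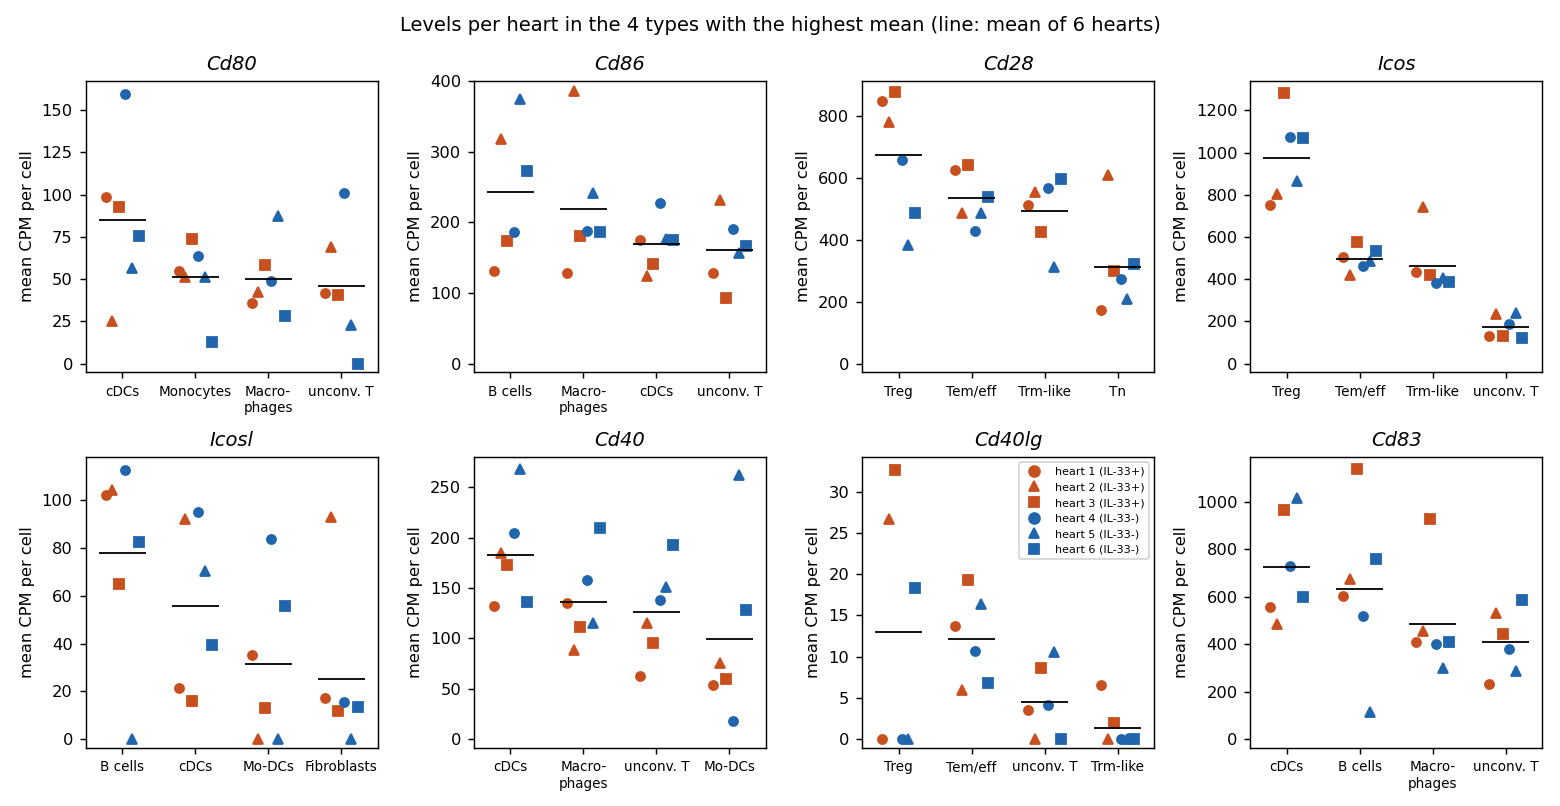
Mean CPM per cell of each gene in its 4 highest types. Each point is 1 heart, hearts labelled IL-33+ in orange and IL-33- in blue, and the black line is the mean of 6 hearts. For *Cd28* in Tregs the orange points (780 to 877 CPM) lie above the blue points (383 to 657 CPM), whereas for *Icos* in Tregs they overlap.

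The genes whose levels over the 14 types were most like those of each costimulation gene were sought among 6289 genes with at least 100 UMIs and 50 CPM in some type, by Pearson correlation of log2(CPM + 10). The types share 1 library, so these values only describe the likeness. For *Cd86* they were the MHC class II genes *Cd74* (r = 0.98), *H2-Ab1* (0.98) and *H2-DMa* (0.98), and for *Cd40* they were *H2-Aa*, *H2-Eb1* and *H2-Ab1* (0.97 each). *Cd83* was most like *Fgd2* (0.96), *H2-Eb1* (0.95) and *Cd40* (0.94). *Cd28* was most like the T cell receptor complex genes *Cd3g* (0.99) and *Trac* (0.99) and like *Ubash3a* (0.98), and *Icos* like *Trp53inp1* (0.97), *Cd5* (0.96) and AU020206 (0.96). *Cd80* was most like *Atp6v1g1*, *Csf2rb* and *Csf2rb2* (0.95 each), *Icosl* like genes that included *Mef2c* (0.93) and *Swap70* (0.88), and *Cd40lg* like *Tnfrsf4* (0.97), *Foxp3* (0.96) and *Izumo1r* (0.96). Among the 8 genes themselves, the closest pairs were *Cd40* and *Cd83* (0.94), *Cd40* and *Cd86* (0.93), *Cd83* and *Cd86* (0.91) and *Cd28* and *Icos* (0.91), and *Cd80* and *Icosl* were less alike (0.49).

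*Cd40lg* and *Foxp3*, alike over types, were then read in the same cells, within annotated Tregs only. Of 263 cells annotated as Tregs, 51 had a UMI of *Foxp3*, the transcription factor that defines Tregs, and none of these had a UMI of *Cd40lg*, which allows a share with a captured UMI of up to 5.88%. The 17 *Cd40lg* UMIs of annotated Tregs lay in 11 of the 212 cells without a *Foxp3* UMI (5.19%), a share within that limit, so no difference was detectable at this depth. Median depth was 2735 UMIs in cells with *Foxp3* and 2873 in those without. *Icos* was 1154 ± 333 CPM in cells with *Foxp3* and 919 ± 226 CPM in those without, and *Cd28* was 699 ± 405 and 680 ± 225 CPM.

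Coreceptor transcripts divided the T cell genes further. In the 5 conventional T types, 436 cells had *Cd4* UMIs and none of *Cd8a* or *Cd8b1*, and 380 cells had the reverse, with median depths of 3916.5 and 3423.5 UMIs. *Cd40lg* was found in 28 of the *Cd4* cells (37 UMIs) and in 0 of the *Cd8* cells, which allows a share with a captured UMI of up to 0.789%. *Icos* was 636 ± 110 CPM in *Cd4* cells and 289 ± 31.4 CPM in *Cd8* cells, and *Cd28* was 596 ± 104 and 376 ± 102 CPM. Both were higher in *Cd4* cells in 6 of 6 hearts. Of the *Cd4* cells 203 were annotated Tem/eff and 146 Treg, and of the *Cd8* cells 188 were Trm-like, so that coreceptor and type overlapped.

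**Figure D3:**
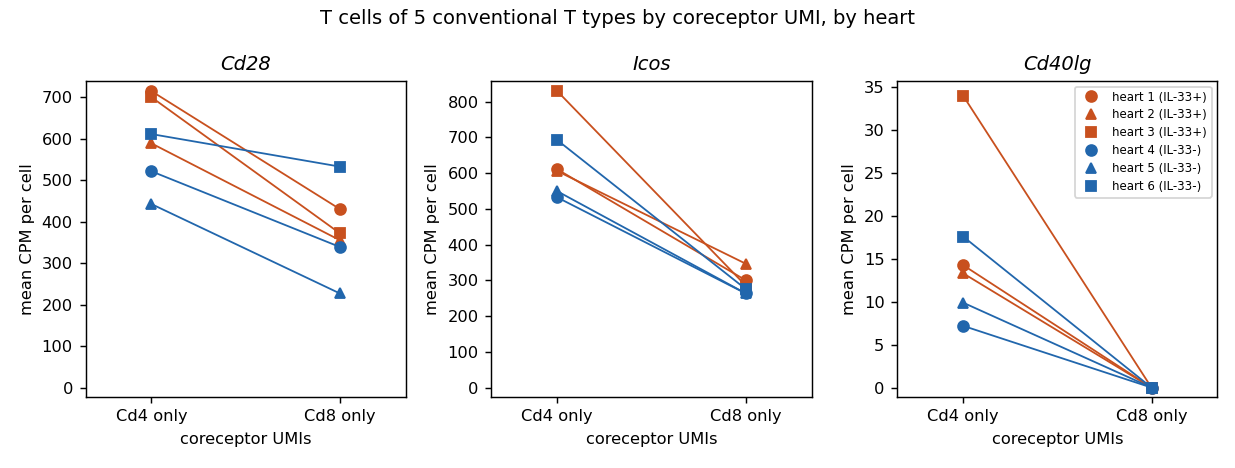
Mean CPM of *Cd28*, *Icos* and *Cd40lg* in cells of 5 T types with UMIs of *Cd4* alone or of *Cd8a* or *Cd8b1* alone. Each line joins the values of 1 heart. All lines fall from left to right, and *Cd40lg* is 0 in the *Cd8* cells of all 6 hearts.

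Among cDCs, *Cd40* separated with mature dendritic cell markers more than the B7 genes did. Of 171 cDCs, 42 had UMIs of at least 2 of 5 genes of mature, migrating dendritic cells (*Ccr7*, *Fscn1*, *Ccl22*, *Il4i1* and *Cacnb3*). In these cells *Cd40* was 424, 521 and 1325 CPM in hearts 1, 2 and 3 and 486, 549 and 302.2 CPM in hearts 4, 5 and 6. In the other 129 cDCs it was 41.5, 17.4 and 57.6 CPM and 89.2, 127 and 32.6 CPM. The mature cells were higher in 6 of 6 hearts, with a ratio of the means of 9.86, although hearts 2, 3 and 5 gave only 2, 4 and 3 mature cells. *Cd83* was 1310 ± 870 CPM against 564 ± 120 CPM (higher in 5 of 6 hearts) and *Cd80* 124 ± 94.5 against 70.4 ± 27.2 CPM (5 of 6). *Icosl* was 117 ± 108 against 28.2 ± 16.2 CPM, higher in 4 of 6 hearts. *Cd86* was 171 ± 73.4 CPM in mature cells and 178 ± 44.2 CPM in the others, higher in 3 of 6. Median depths were 6700 and 6478 UMIs.

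The remaining cDCs were divided by markers of the cross-presenting lineage (*Xcr1* or *Clec9a*, 31 cells) and by *Cd209a* (48 cells). *Cd83* was 633 ± 256 and 722 ± 371 CPM in them, *Cd86* 150 ± 87.6 and 157 ± 104 CPM, *Cd80* 86.1 ± 82.6 and 41.8 ± 42.0 CPM, and *Cd40* 24.1 ± 20.8 and 60.3 ± 30.1 CPM. Hearts 2 and 5 gave 1 cell each with *Xcr1* or *Clec9a*, and differences between these subsets were not tested.

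Joint detection in single cells followed the same lines in cDCs. At 1500 UMIs per cell, 25 of the 30 cDCs with a *Cd40* UMI also had a *Cd83* UMI (83.3%), compared with 44.0% of cDCs without *Cd40*. In macrophages the shares were 51.4% and 42.6%, and in B cells 57.6% and 55.7%. *Cd86* was found in 25.3% of cDCs with *Cd83* and 15.5% of those without. Cells of 1 heart are not replicates, and these shares are given without a test.

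**Figure D4:**
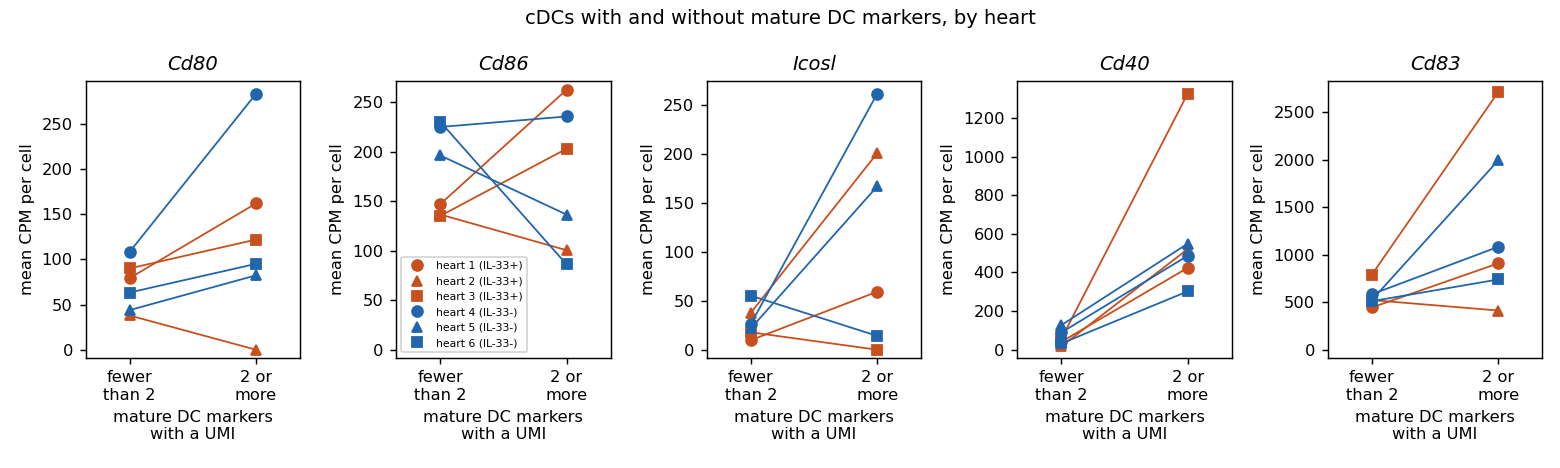
Mean CPM of 5 genes in cDCs with fewer than 2, or with 2 or more, of 5 mature dendritic cell markers. Each line joins the values of 1 heart (orange, IL-33+, and blue, IL-33-). *Cd40* goes up in 6 of 6 hearts and *Cd86* in 3 of 6.

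The study compared hearts with and without donor IL-33. For that comparison, log2(CPM + 10) of 3 hearts was set against that of 3 hearts with limma over all genes of a type, for genes with at least 10 UMIs and a UMI in at least 3 hearts. Of 112 pairs of gene and type, 80 were tested and 32 had too few UMIs. None of the 80 was called at an adjusted p of 0.05 in limma, and of all genes in the 14 types 0.00884% of tests were called. An unadjusted limma p of 0.05 or less was reached by 7 pairs (8.75%), where 4.71% of all tests reached it. With limma-voom 13 pairs were at that limit and none was called. The share of all genes at that limit was not computed for limma-voom, so the 13 cannot be set against 4.71%. The groups did not overlap in 10 pairs, 6 of them higher and 4 lower in hearts labelled IL-33+. Over all genes 9.82% of tests did not overlap, 4.87% higher and 4.94% lower, so that the members' share of non-overlap was near that of all genes. The 7 pairs at the unadjusted limit were all higher in IL-33+ hearts, and 5 of them were *Cd83*.

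*Cd28* in Tregs was the receptor pair in T cells that reached the unadjusted limit. Their group means, 835 ± 49.8 CPM with and 508 ± 139 CPM without donor IL-33 by label, correspond to a log2 fold change of 0.74 ± 0.23 (SE), or 1.67-fold (adjusted p = 0.71 with limma). In Tregs 10.0% of all genes did not overlap between the groups. The fold change was positive in every alternative run, between 0.56 and 0.94. The log2 fold change of *Cd28* was 0.26 ± 0.16 in Tem/eff cells and 0.06 ± 0.22 in Trm-like cells, and whether the types differ was not tested. After thinning, 63.0, 48.0 and 61.2% of Tregs in hearts 1, 2 and 3 and 58.2, 52.0 and 45.5% in hearts 4, 5 and 6 had a *Cd28* UMI (exact permutation p = 0.4). At 3000 UMIs per cell, which left 9 to 45 Tregs of a heart, the shares were apart, at 88.9, 66.7 and 71.1% against 58.3, 46.7 and 50% (23.9 points, exact permutation p = 0.1, and 12.1 points unthinned). The thinned shares of 8.96% of genes in Tregs did not overlap at 1500 UMIs and those of 7.63% at 3000 UMIs.

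*Icos* in the same Tregs gave no such separation. Its log2 fold change was -0.12 ± 0.21 in Tregs and 0.01 ± 0.16 in Tem/eff cells (adjusted p = 0.98 and above 0.99 with limma). Trm-like cells had 433, 740 and 422 CPM in hearts 1, 2 and 3 and 383, 406 and 387 CPM in hearts 4, 5 and 6. These groups did not overlap, as was true of 10.3% of genes in Trm-like cells, and the log2 fold change was 0.38 ± 0.21 (adjusted p = 0.92). In macrophages, where *Icos* is not characteristic, 24 UMIs gave 11.3, 17.0 and 11.96 CPM against 5.68, 0 and 3.07 CPM (log2 fold change 0.87 ± 0.41, adjusted p = 0.99). Here 8.97% of genes did not overlap. The 5 T cell markers together were 28.8 to 56.9 CPM in macrophages of hearts labelled IL-33+ and 19.2 to 27.2 CPM in the others, and their part in the *Icos* values was not tested.

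*Cd40lg* passed the filter in Tem/eff cells (log2 fold change 0.09 ± 0.39) and Tregs (0.82 ± 0.74), and neither passed the test. In thinned Tregs *Cd40lg* was found in 0, 4.00 and 4.08% of cells of hearts 1, 2 and 3 and in none of hearts 4, 5 and 6 (exact permutation p = 0.4).

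In cDCs the 5 ligand and antigen-presenting cell genes had log2 fold changes below 0, none past its test. *Cd86* in cDCs was 174, 125 and 141 CPM in hearts 1, 2 and 3 and 228, 176 and 175 CPM in hearts 4, 5 and 6. The groups did not overlap, as for 12.4% of all genes in cDCs, but hearts 1, 5 and 6 were within 2 CPM of each other, and the log2 fold change was -0.38 ± 0.30 (adjusted p = 0.87). *Cd80* (-0.43 ± 0.49), *Cd40* (-0.26 ± 0.32), *Icosl* (-0.77 ± 0.56) and *Cd83* (-0.25 ± 0.26) were also below 0 in cDCs, each with overlapping groups and an adjusted p of 0.84 or more.

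The share of cDCs with *Cd40* showed the groups apart. After thinning it was 10.53, 16.7 and 15.9% in hearts 1, 2 and 3 and 22.9, 22.2 and 19.2% in hearts 4, 5 and 6, a difference of -7.09 percentage points (exact permutation p = 0.1). The share with *Cd83* was 47.4, 33.3 and 45.5% against 52.1, 66.7 and 61.5%, a difference of -18.0 points (exact permutation p = 0.1). Hearts 2 and 5 gave only 6 and 9 cDCs, so their shares rest on few cells and 1 cell more or less could make the groups overlap. With 3 hearts against 3 a two-sided exact test cannot give a p under 0.1. At 3000 UMIs per cell the *Cd40* shares stayed apart (-14.7 points) and the *Cd83* shares overlapped (-7.79 points, exact permutation p = 0.2). Over all genes in cDCs, 7.45% of such shares did not overlap at 1500 UMIs and 10.1% at 3000 UMIs. In these cDCs the 5 mature markers together were 704 to 1721 CPM in hearts labelled IL-33+ and 1887 to 3528 CPM in the others, and 9.09 to 33.3% of cDCs had at least 2 of them, against 29.2 to 38.5%. Their part in the *Cd40* and *Cd83* shares was not tested.

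Of the 8 shares compared this way, each in the gene's highest type, the other 6 overlapped between groups at 1500 UMIs. In B cells 9.40% of genes did not overlap by this measure, and 7.40% at 3000 UMIs. The differences were -2.85 points for *Cd80* in cDCs, -5.11 for *Cd86* and 5.54 for *Icosl* in B cells, and 5.52 for *Cd28*, -7.44 for *Icos* and 2.69 for *Cd40lg* in Tregs, with exact permutation p between 0.3 and 0.6.

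In the other antigen-presenting types no ligand passed the test. The log2 fold change of *Cd86* was -0.44 ± 0.39 in B cells, 0.04 ± 0.31 in macrophages, 0.49 ± 0.75 in Mo-DCs and -0.33 ± 0.47 in monocytes, and that of *Cd80* was -0.14 ± 0.40 in macrophages, -0.92 ± 1.25 in Mo-DCs and 0.56 ± 0.64 in monocytes. In unconventional T cells they were -0.26 ± 0.44 for *Cd86* and 0.83 ± 0.86 for *Cd80*. *Icosl* in B cells gave 1.03 ± 0.80, which became -0.11 when heart 5 with its 4 B cells was left out. *Icosl* in macrophages was 2.61, 0 and 5.34 CPM against 11.9, 14.6 and 5.88 CPM, without overlap but from 15 UMIs (-0.72 ± 0.40, adjusted p = 0.99). *Cd86* in NK cells did not overlap either, at 2.14, 0 and 5.09 CPM against 7.54, 8.22 and 9.08 CPM from 16 UMIs in 931 cells (-0.58 ± 0.36). In NK cells 11.3% of genes did not overlap. These levels are those of a gene found in 0.859% of thinned NK cells.

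*Cd40* had opposite directions in B cells and in unconventional T cells. In B cells it was 100, 94.0 and 119 CPM in hearts 1, 2 and 3 and 92.5, 0 and 88.0 CPM in hearts 4, 5 and 6 (log2 fold change 1.29 ± 0.77, adjusted p = 0.84), where 10.4% of genes did not overlap. Without heart 5 the value was 0.19. B cells also had a median log2 fold change of 0.28 over all genes, which was at most 0.08 from 0 in the other types. In unconventional T cells *Cd40* was 62.5, 116 and 95.2 CPM against 139, 151 and 193 CPM (-0.78 ± 0.48, adjusted p = 0.98), where 9.46% of genes did not overlap. Macrophage markers in those cells were 3074 to 4183 CPM in hearts labelled IL-33+ and 3858 to 6355 CPM in the others, and without cells that held both kinds of marker the groups, over the 5 hearts left, overlapped while the log2 fold change was -0.81. In macrophages the log2 fold change of *Cd40* was -0.47 ± 0.29, and in Mo-DCs -0.49 ± 0.94.

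The 5 types in which *Cd83* reached the unadjusted limit were Mo-DCs, Tregs, B cells, macrophages and fibroblasts. In Mo-DCs it was 399, 292 and 423 CPM in hearts 1, 2 and 3 and 251, 0 and 151 CPM in hearts 4, 5 and 6. The groups did not overlap, as for 7.51% of genes in Mo-DCs, and the log2 fold change was 2.33 ± 0.70 (adjusted p = 0.40 with limma). Hearts 2 and 5 gave 4 and 7 Mo-DCs, and without hearts of fewer than 10 cells the log2 fold change was 1.04 ± 0.54 with the groups still apart. Leaving out heart 4, whose Mo-DCs held the most neutrophil marker transcripts, gave 3.23 (adjusted p = 0.036 with limma). The IL-33- group was then hearts 5 and 6 only, with 0 *Cd83* UMIs in 7 cells and 6 UMIs in 17 cells. Heart 4 had the highest *Cd83* of its group, and the share of all genes called without it was not computed.

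In Tregs *Cd83* was 55.2, 111 and 167 CPM against 65.9, 24.9 and 25.0 CPM (log2 fold change 1.31 ± 0.48, adjusted p = 0.88). In B cells the log2 fold change was 1.09 ± 0.41 (adjusted p = 0.84), and it was 0.30 without heart 5 and 1.62 (adjusted p = 0.007 with limma) without heart 6. Without heart 6 the IL-33- group was hearts 4 and 5 only, and heart 5 had 2 *Cd83* UMIs in 4 B cells. Heart 6 had the highest *Cd83* of its group in B cells, and the share of all genes called without it was not computed. In macrophages the log2 fold change was 0.59 ± 0.27 (adjusted p = 0.99). Fibroblasts, with 61 UMIs, had 52.8, 87.3 and 30.8 CPM against 27.3, 0 and 11.05 CPM, without overlap where 7.98% of genes did not overlap (1.66 ± 0.76, adjusted p above 0.99). In cDCs, monocytes (-0.76 ± 0.46) and unconventional T cells (-0.07 ± 0.35) *Cd83* was not higher in hearts labelled IL-33+.

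Heart 3 had the highest *Cd83* of the 6 hearts in 7 of 14 types. Without heart 3 the log2 fold change was 0.23 in macrophages, 0.98 in Tregs, 0.81 in B cells and 2.23 in Mo-DCs. In fibroblasts, where heart 3 was the lowest of its group, it was 1.98, beside 1.66 with all 6 hearts. It was -0.55 in cDCs, where hearts 1 and 2 then lay below all hearts labelled IL-33-. A list of 9 immediate early and heat shock genes (*Fos*, *Jun*, *Junb*, *Egr1*, *Ier2*, *Dusp1*, *Nr4a1*, *Hspa1a* and *Hspa1b*), which rise with activation and with tissue digestion, was added after these values were seen. It summed to 11684 CPM in macrophages of heart 3 and to 3409 to 4516 CPM in those of the other hearts. In Tregs it was 10010 and 12434 CPM in hearts 2 and 3 and 5026 to 6066 CPM in the others. Mo-DCs had 12911 CPM in heart 3 and 4324 to 7288 CPM in the others. Heart 3 was not the highest in the other 2 types at the unadjusted limit. B cells had 4798 CPM in heart 3 and 5149 CPM in heart 5, whose B cells had the least *Cd83*. Fibroblasts had 14206 CPM in heart 3, below hearts 1 (16000) and 6 (14391). Its part in the *Cd83* values was not tested.

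**Figure D5:**
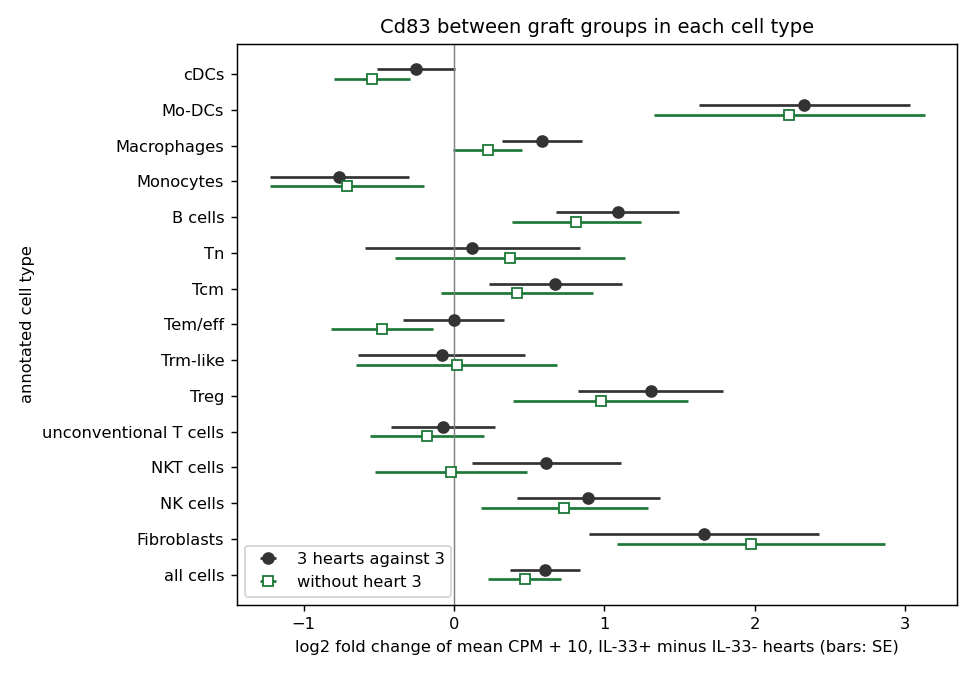
Log2 fold change of *Cd83* (hearts labelled IL-33+ minus IL-33-) in each type and in all cells, with all 6 hearts (filled) and without heart 3 (open). Bars are standard errors. Mo-DCs (2.33), fibroblasts (1.66), Tregs (1.31) and B cells (1.09) lie farthest to the right.

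Over all cells of a heart, a level mixes how many cells of a type there are with how much transcript each holds, and these cannot be told apart. None of the 8 genes was called, as none of all 14407 genes was (0%). *Cd83* was the 1 member at the unadjusted limit in limma, which 3.98% of genes reached, with 201, 153 and 236 CPM against 185, 96.4 and 106 CPM (0.61 ± 0.23, adjusted p = 0.94). No member's groups were apart, compared with 10.2% of genes. The log2 fold changes of *Cd80* and *Cd40* were -0.03 each and that of *Icosl* was -0.02. Macrophages were 22.2% of the cells of heart 1 and 4.35 to 8.49% of those of the others.

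A further 66 genes of the same pathways were read in 4 lists. Of 705 pairs of gene and type tested, none was called at an adjusted p of 0.05 with limma, 28 were higher and 28 lower at the unadjusted limit, and in 40 the groups were apart and higher and in 42 apart and lower in hearts labelled IL-33+. The pairs apart were 11.6% of those tested, beside 9.82% over all genes, and those at the unadjusted limit 7.94%, beside 4.71%. By list 10.2, 13.8, 10.5 and 11.3% of pairs were apart, in the order given here. The median log2 fold change over the lists was 0.05, beside a median of -0.00 over all genes. Among receptors and ligands of the same families (157 pairs, 6 apart and higher, 10 apart and lower), *Cd27*, a costimulatory receptor of the TNF receptor family, was 96.2 CPM in NK cells of the IL-33+ group and 193 CPM in the others (log2 fold change -0.92 ± 0.21, adjusted p = 0.25, and 0.037 with limma-voom). In Tregs *Cd27* was 428 and 718 CPM (-0.73 ± 0.23, adjusted p = 0.71), opposite in sign to *Cd28* in the same cells.

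Among genes of CD28 and ICOS signalling (239 pairs, 18 apart and higher, 15 apart and lower), *Rel*, an NF-kB subunit, was 426 against 216 CPM in Tregs (0.91 ± 0.28, adjusted p = 0.71) and 525 against 879 CPM in cDCs (-0.75 ± 0.24, adjusted p = 0.52). Among genes of CD40 signalling and NF-kB (247 pairs, 13 apart in each direction), *Ccr7*, the receptor that guides mature dendritic cells to lymph nodes, was 586, 514 and 273 CPM in cDCs of hearts 1, 2 and 3 and 1164, 886 and 2144 CPM in those of hearts 4, 5 and 6. Its log2 fold change was -1.56 ± 0.30 (adjusted p = 0.12, and 0.00049 without the filter on low UMIs). *Traf3*, an adaptor that CD40 recruits, was 40.6 against 159 CPM in monocytes (-2.10 ± 0.61, adjusted p = 0.42). Among genes of CD83 and MHC class II turnover (62 pairs, 3 apart and higher, 4 apart and lower), *H2-Ab1* (-0.59 ± 0.16, adjusted p = 0.37) and *Cd74* (-0.50 ± 0.14, adjusted p = 0.41) were lower in cDCs of hearts labelled IL-33+. *H2-Ab1* carries the Bm12 mutation, so donor and recipient transcripts of it differ in sequence.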

How the data were processed

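Single-cell RNA and hashtag libraries of 6 hearts (3 per group) at POD 14 were processed by the authors with Cell Ranger and Partek 10.0.23.0425 on mm10, and the authors deposited log2(CPM + 1) per cell with their cell type annotation. How hashtags were assigned is not given in the sources used here. UMIs were recovered from the size of a single step in each cell: 99.9% of low values, and all 5289 values of the 8 genes, were whole within 0.05. Cells had 1500 to 14977 UMIs. The authors kept cells within limits on total counts, detected genes and mitochondrial share, to remove likely doublets and poor cells, and no doublet caller was run here.

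For each heart and type the mean CPM of its cells was taken, and log2(mean + 10) was compared with limma 3.58.1 (R 4.3.3, trended, Benjamini-Hochberg over all genes of a type), for genes with at least 10 UMIs and a UMI in 3 hearts. Fold changes are on that scale and understate changes of low genes. The hearts are replicates, but nothing states whether each came from a separate operation day, and all share 1 library. Detection shares were tested by exact permutation of hearts after thinning to 1500 UMIs (Python 3.11.15, scipy 1.17.1). Scripts were tested on simulated data. Positions are from the GENCODE vM21 annotation of GRCm38.

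Fold changes were given for each gene in types with at least 50% of its highest level, and for pairs called or not overlapping at an unadjusted limit of 0.05. From the pathway lists the 2 non-overlapping genes with the smallest p per list were named. Other pairs were named after their values were seen, and so were the dendritic cell subsets, coreceptor classes and immediate early list chosen. The genes and lists were chosen with earlier results of these data known. Alternatives were the pseudocount, the filter, summed UMIs, limma-voom, robust variances, leaving out cells with T cell and macrophage markers, hearts with fewer than 10 cells, or each heart, and thinning to 3000 UMIs or none. A marker check and a gene by likeness of level are not reported here.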

Additional observations from a re-analysis of the deposited data

Results flagged for a closer look

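The difference between groups in *Cd40* pointed in opposite directions in B cells (log2 fold change 1.29) and in unconventional T cells (-0.78). The difference between the types was 2.07. This pair of types was picked because its groups were apart in opposite directions. An exact permutation p of 0.1 for the difference was thereby fixed in advance and tests nothing. The B cell value was 0.19 without heart 5, which had 4 B cells, and 55.4% of the unconventional T cells held T cell and macrophage markers together.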

How the results depend on the processing

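No paired analysis was possible because the hearts are numbered 1 to 3 in one group and 4 to 6 in the other and share no number. Of 39 fold changes computed under 14 alternatives, 20 kept their sign in all of them and 19 did not. With limma-voom the log2 fold change was -0.31 for *Cd86* in macrophages, 0.15 for *Cd86* in monocytes, -0.025 for *Cd28* in Trm-like cells, 0.024 for *Icos* in Tregs, -0.12 for *Icosl* in B cells and 0.085 for *Cd83* in cDCs, each opposite in sign to the value reported. *Icos* in Tem/eff cells was -0.033 with summed UMIs and -0.024 without cells of mixed markers, and *Icosl* in all cells was 0.061 with a pseudocount of 1 CPM. Without hearts of fewer than 10 cells the value was 0.023 for *Cd80* in Mo-DCs, -1.11 for *Cd80* in unconventional T cells, -0.11 for *Cd86* in Mo-DCs, 0.56 for *Cd86* in monocytes, -0.11 for *Icosl* in B cells, 0.10 for *Cd40* in Mo-DCs and 0.15 for *Cd83* in cDCs. Thinned to 3000 UMIs, the share differed by 8.77 points for *Cd86* in B cells and by 4.44 for *Icos* in Tregs, which was 2.19 unthinned. The cause of these changes was not tested.

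Leaving out 1 heart at a time gave these ranges of the log2 fold change. For *Cd80* it was -0.71 to 0.10 in cDCs, -0.47 to 0.21 in macrophages, -0.030 to 1.70 in unconventional T cells and -0.25 to 0.19 in all cells. For *Cd86* it was -0.39 to 0.37 in macrophages, -0.76 to 0.32 in monocytes and -0.60 to 0.015 in unconventional T cells. For *Cd28* in Trm-like cells it was -0.23 to 0.22, for *Icos* -0.10 to 0.12 in Tem/eff cells and -0.36 to 0.023 in Tregs, and for *Icosl* -0.11 to 1.70 in B cells and -0.26 to 0.35 in all cells. For *Cd40* it was -1.42 to 0.22 in Mo-DCs and -0.28 to 0.12 in all cells, for *Cd40lg* in Tem/eff cells -0.11 to 0.33, and for *Cd83* in unconventional T cells -0.31 to 0.27. The share of cDCs with *Cd80* differed by -9.18 to 2.05 points.

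Called members ranged from 0 to 1, called pathway pairs from 0 to 2, non-overlapping member pairs from 15 to 20 and non-overlapping pathway pairs from 142 to 159, where fewer hearts overlap less often. Without hearts of fewer than 10 cells the latter counts were 20 and 170. The shares of all genes apart and called were not computed for any of these runs, so no excess can be read from the counts. Members at the unadjusted limit numbered 3 with a pseudocount of 1 CPM and 13 with limma-voom, and the share over all genes was not computed for either. In runs that kept all 6 hearts, pathway pairs called were 2 without a filter (*Ccr7* in cDCs and *Nfkb1* in B cells), 1 with limma-voom (*Cd27* in NK cells) and 1 with robust variances (*Cd74* in unconventional T cells). Without hearts of fewer than 10 cells the log2 fold change of *Tnfsf8* in unconventional T cells was 3.04, from 3 hearts. Depth limits *Cd40lg* (52 UMIs) and *Icosl* (249 UMIs) most.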
